A study of Nematostella vectensis with 123 samples.

Results

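The 100 most abundant transcript models of the starlet sea anemone embryo were described across single embryos of Nematostella vectensis. The members were chosen by level. Counts were scaled to the same total over Nv. models in each embryo (CPM), the models of 2 very large identifier stems were set aside (a stem is the part of an identifier before its last field), and the 100 models of highest median CPM over 121 embryos were kept, of 40499 models in all. These stems cover 3153 and 539 models, and each would have given 25 of the top 100 had no stem been dropped. Since the median level chose the members, their levels are given as a description without a test. The files pair no identifier with a gene name, so the members are given by identifier and no role is assigned to any of them.

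A cnidarian egg carries maternal RNA that serves the first divisions. Transcription from the embryo's own genome then starts, maternal RNA is degraded, the blastula gastrulates, and a swimming ciliated planula larva forms. Among the most abundant messenger RNAs of a growing animal embryo are commonly those for the ribosome, translation factors and the cytoskeleton, and the set at the top can change as the maternal supply is replaced.

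The series followed 123 untreated single embryos, each frozen at its own time after being picked at 4 cells and kept at 20 °C. The labels give no strain, genotype or clutch. Label numbers, read as minutes, run from -20 to 4320 (72 h), and they rise with embryo number up to embryo 73 (embryo 50, at -20, excepted) and fall from embryo 74 to 123, so the number blocks 1 to 73 and 74 to 123 were kept apart. The protocol names 48 h, at the late planula, as its end. Embryos 10 and 111, with 7247 and 10178 gene counts, were left out. The first block then held 19 embryos before 12 h, 17 at 12 to 24 h, 18 at 24 to 36 h and 18 at 36 to 48 h. The second held 12 at 36 to 48 h, 18 at 48 to 60 h and 19 at 60 to 72 h. Gene counts per embryo ranged from 56536 to 2646585. Embryos of a window are of different ages and no label makes them replicates. A p-value here sets a change only against the spread among these embryos. Within a window that spread mixes age with differences between embryos. RNA came from whole embryos, so a change in the number of cells that hold a transcript and a change in its amount per cell cannot be told apart. Each library was made from transcript 3′ ends (CEL-Seq), so levels were not divided by length, and was treated with a duplex-specific nuclease, which acts most on abundant molecules. The effect of that treatment on these levels was not tested.

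Median levels spanned 6.69-fold from the first to the last member. Nv.T1.7406.1 was first with a median of 3036 CPM, followed by Nv.T1.21006.1 (2894 CPM), Nv.T1.25022.1 (1772), Nv.T1.35370.1 (1759) and Nv.T1.6432.2 (1710). The next 5 were Nv.T1.11265.8 (1589 CPM), Nv.T1.11904.10 (1578), Nv.T1.62046.1 (1424), Nv.T1.47250.1 (1371) and Nv.T1.56302.1 (1324). Only 16 members had a median over 1000 CPM. The threshold lay on a gentle slope. Nv.T1.63594.6, Nv.T1.60047.1, Nv.T1.6615.8, Nv.T1.6149.1 and Nv.T1.7845.3 were the last 5 inside, the last of them at 454 CPM, and Nv.T1.21338.1 was the first outside at 452 CPM, followed by Nv.T1.22546.1, Nv.T1.63594.7, Nv.T1.63594.8 and Nv.T1.52304.1. The rule weighs late embryos most, with 85 of its 121 embryos at 24 h or later and 36 before. Ranked over the first block alone, 75 of the 100 models stayed, and 79 stayed when ranked over the second block alone. Those 2 rankings shared 56 models.

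The members held a small share of the transcripts of the youngest embryos and a much larger one later. Before 12 h they held a median of 2.06% of gene counts (lowest 1.67%, highest 5.02%, n = 19). At 12 to 24 h the median was 7.39% (3.93 to 8.90%), at 24 to 36 h 8.78% (6.88 to 11.1%) and at 36 to 48 h of the first block 8.69% (5.24 to 10.5%). In the second block the medians were 10.6%, 10.6% and 10.8% in its 3 windows, with values between 7.57 and 12.8%. The windows before 12 h and at 24 to 36 h did not overlap, whereas the later windows did. Because the rule favours models that are high late, this difference is in part set by the choice of members.

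**Figure D1:**
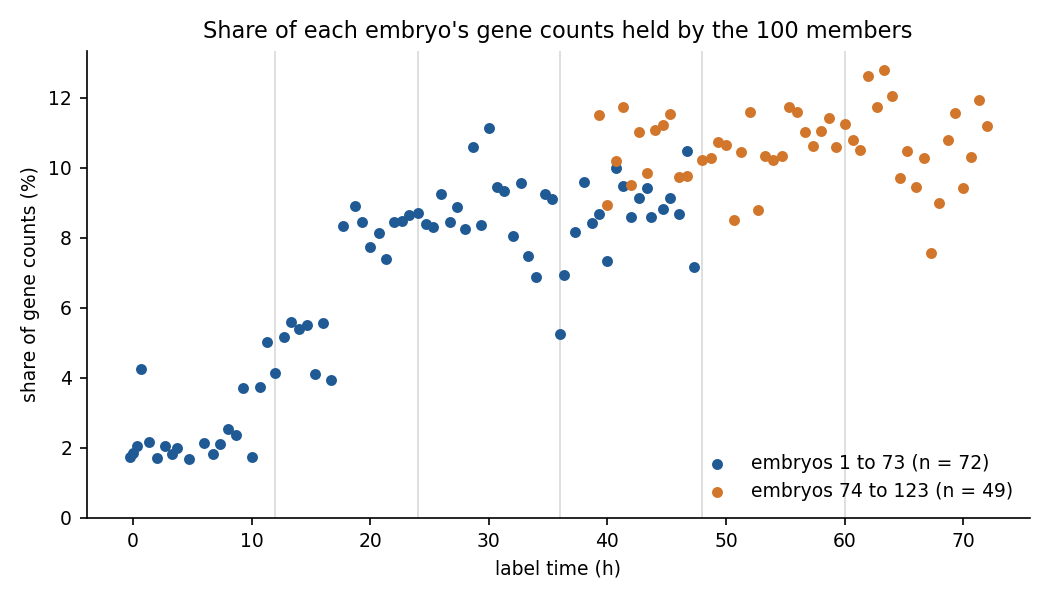
Share of each embryo's gene counts (%) held by the 100 members against label time (h), 1 point per embryo, blue for embryos 1 to 73 and orange for embryos 74 to 123; grey lines mark the 12 h windows. Shares lie near 2.06% before 12 h, between 3.93 and 8.90% at 12 to 24 h and between 5.24 and 12.8% afterwards.

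The share did not change evenly with time. From the first embryos to 600 min it lay at a median of 2.05% (1.67 to 4.26%, n = 17), at 640 to 1000 min at 5.10% (3.72 to 5.58%, n = 10), and from 1060 min to the end of the first block at 8.60% (5.24 to 11.1%, n = 45). These 3 stretches were marked off after the values were seen. The value of 4.26% belongs to embryo 3 at 40 min. There 1 member, Nv.T1.12888.1, at 24121 CPM, held more of the share than all other members together. Embryo 3 also had 71.0% unaligned counts against a median of 38.4% in its block. The value of 5.24% belongs to embryo 56, in which the 2 stems set aside held 52.8% of gene counts. Around the second step, the 8 embryos of 680 to 960 min held 4.11 to 5.58% (median 5.29%) and the 8 of 1120 to 1400 min held 7.39 to 8.90% (median 8.45%), with no overlap. Between the medians of these embryos the median member was 0.86 higher on the log2 scale, 40 members were 2-fold or more higher, and 11 were lower. Median gene counts per spike-in count went from 3.09 to 4.82 and median gene counts from 723268 to 1472350 between the same embryos, and their part in the step was not tested. After 24 h the share no longer followed time: across embryos its correlation with label time was r = 0.84 over the first block (n = 72), -0.01 over that block from 24 h (n = 36) and 0.07 over the second block (n = 49). In both late sets it ran against the share of the stems set aside (r = -0.68 in each), which enter the same total.

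Outside the 2 stems set aside, the members were mostly among the most abundant models from 24 h on and mostly not in the first hours. Of the 121 embryos that ranked them 85 were at 24 h or later, so this difference is in part set by the rule. Of the 100 models of highest median before 12 h, again without the 2 stems, 13 were members. The number was 46 at 12 to 24 h, 81 at 24 to 36 h, 82 at 36 to 48 h of the first block, and 81, 77 and 79 in the 3 windows of the second. Within single embryos, the 2 stems left out, a median of 10 members stood among that embryo's own top 100 before 12 h. The median was 39 at 12 to 24 h and lay between 61.5 and 71 in the later windows. Outside the 2 stems, the most abundant model of an embryo was a member in 61 of 121 embryos, and in 3 of the 19 before 12 h. Nv.T1.7406.1 was that model in 31 embryos. Some models that were not members took the top place at ages far apart. Of these, named after their values were seen, Nv.T1.71029.1 did so in embryos 7, 32, 58 and 96 (200, 1240, 2240 and 3440 min). Nv.T1.12385.5 did so in embryos 3, 28, 54 and 92 (40, 1060, 2080 and 3600 min). The top place thus did not follow age alone, and why was not tested. The 100 models highest before 12 h held a median of 7.88% of gene counts in that window and 2.61% at 24 to 48 h of the first block, a difference that is in part set by their choice in the first of these windows. Also without the 2 stems, the best-placed members before 12 h were Nv.T1.64122.2 in place 4 (median 1404 CPM), Nv.T1.7686.5 in place 7 (1272 CPM) and Nv.T1.12888.1 in place 12 (1020 CPM).

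Members were detected almost throughout. Of the 12100 values of a member in an embryo, 75 were 0, and 80 members were never at 0. Nv.T1.24227.1 alone gave 19 of the zeros.

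Most members were low in the first hours and high from 24 h on. Setting the median at 24 to 48 h of the first block against the median before 12 h, 83 members were 2-fold or more higher, 58 were 8-fold or more higher and 6 were lower. The median ratio was 3.37 on the log2 scale, with a range from -2.001 to 9.52. For 40 members every embryo before 12 h lay below every embryo at 24 to 48 h. The rule favours models that are high late, so these counts are in part set by the choice of members. The same counts over all models are not given here. By window medians, 55 members were highest at 36 to 48 h, 25 at 24 to 36 h, 15 at 12 to 24 h and 5 before 12 h.

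**Figure D2:**
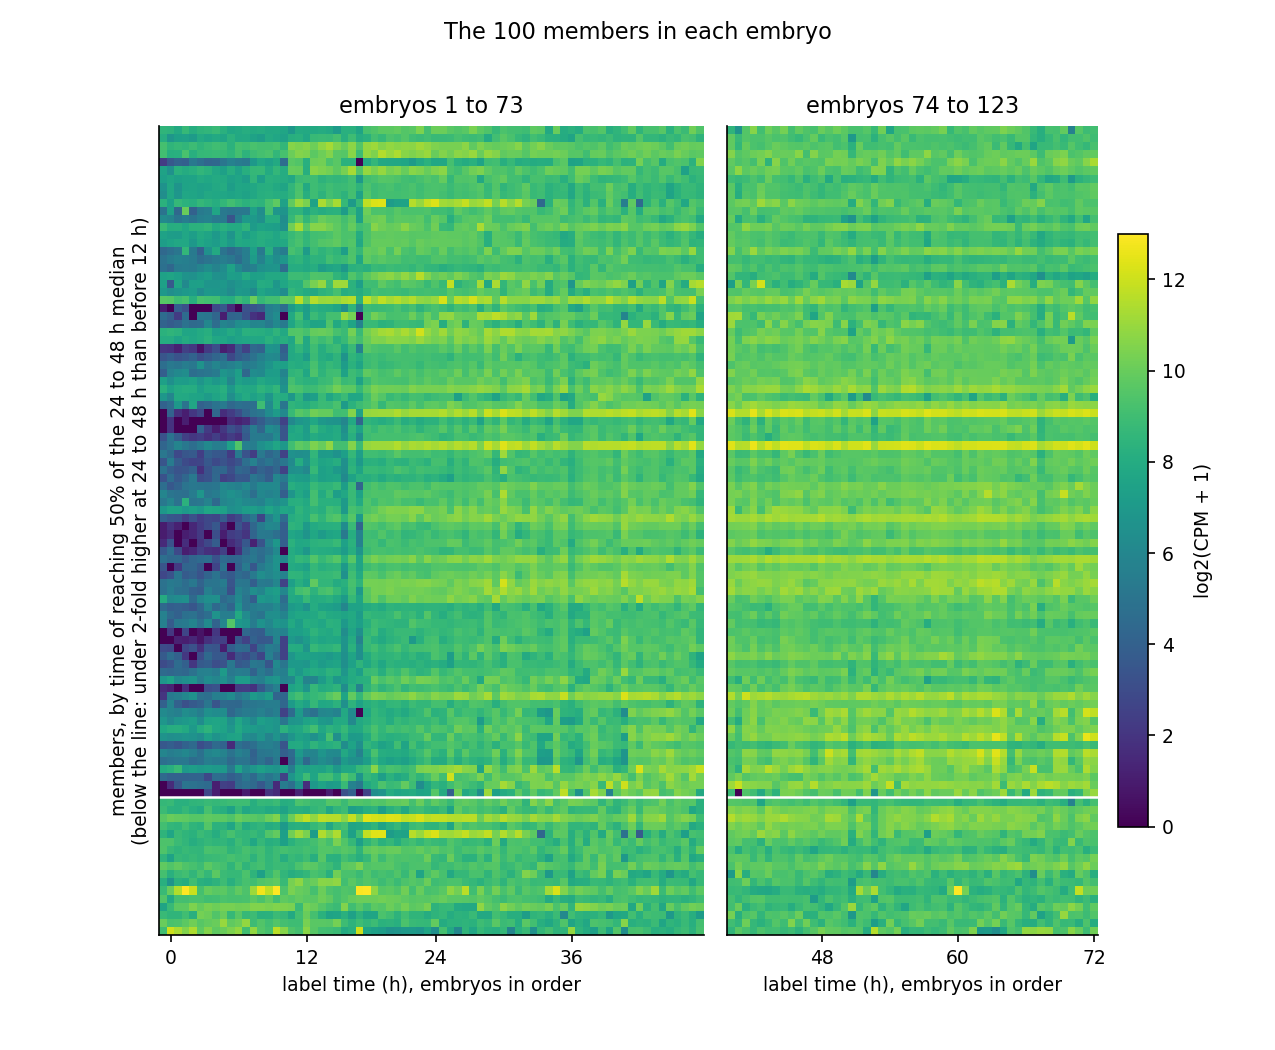
The 100 members (lines of the map) in each embryo (columns, in order of label time in h, left panel embryos 1 to 73, right panel embryos 74 to 123), coloured by log2(CPM + 1). Members are ordered by the time at which they reached 50% of their median at 24 to 48 h; the 17 under the white line had a median at 24 to 48 h less than 2-fold above that before 12 h. The dark area at the left above that line shows how low many of the 83 members there were before 10 h.

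These 83 members reached 50% of their median at 24 to 48 h at different times. The time was taken on a running median of 5 embryos, as the first label time at which the level passed that mark. For a member only about 2-fold higher at 24 to 48 h than before 12 h the mark lies near the starting level, so the earliest times mark no climb. The time fell before 8 h for 4 members, at 8 to 10 h for 6, at 10 to 12 h for 9, at 12 to 14 h for 13, at 14 to 16 h for 2, at 16 to 18 h for 28, at 18 to 24 h for 18 and later for 3. Thus 22 members lay between 10 and 14 h and 41 between 16 and 20 h, and the median was 1000 min. Embryo 27, also at 1000 min, stands inside the second of these crowds. Without 9 embryos of unusual totals, embryo 27 among them, the 14 to 16 h count was 6, the 16 to 18 h count was 11, the 18 to 24 h count was 31, and 22 and 37 members lay at 10 to 14 h and 16 to 20 h. With a running median of 3 embryos the 14 to 16 h count was 5.

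Of the successive steps, 12 to 24 h against before 12 h had the most members called. Of the 99 members tested, 84 were higher and 1 lower at 12 to 24 h, at a Benjamini-Hochberg adjusted p under 0.05 in edgeR's quasi-likelihood test with a change of 2-fold or more. Over all 11348 models tested, 26.3% passed the same rule as higher and 21% as lower. Both windows entered the ranking that chose the members, so nothing is read from the difference between these shares. The median member changed by 2.48 on the log2 scale (range -1.52 to 4.31) and the median of all models by 0.07. Of the members, 61 were at least 4-fold and 34 at least 8-fold higher. With the 100 models ranked over the second block alone, whose embryos enter no fit of the first block, 83 of 96 tested rose and 1 fell, though that ranking too favours models that are high late.

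The largest rise was that of Nv.T1.21006.1, the second most abundant member. It lay between 0 and 801 CPM before 12 h (median 16.9, n = 19) and between 177 and 2847 CPM at 12 to 24 h (median 1947, n = 17). The windows overlapped, and 13 of the 17 later embryos lay above all earlier ones. It changed by 4.31 ± 0.74 on the log2 scale (SE, edgeR adjusted p = 4.8e-06). Nv.T1.25022.1 followed, from 3.97 to 330 CPM before 12 h (median 10.2) to 124 to 1572 CPM (median 858). Here 15 of 17 later embryos lay above all earlier ones, and the log2 fold change was 4.29 ± 0.58 (edgeR adjusted p = 1.1e-07). The most abundant member, Nv.T1.7406.1, went from a median of 57.2 CPM (17.68 to 872) to 1939 CPM (460 to 2927), with 3.48 ± 0.47 on the log2 scale (adjusted p = 1.1e-07 in edgeR). The upper ends before 12 h come from the oldest embryos of that window. Embryo 19, at 680 min, held the highest value of 50 of the 100 members and embryo 18, at 640 min, that of 25. Without embryo 19 the log2 fold change of Nv.T1.21006.1 was 5.26 (edgeR adjusted p = 2.2e-08), and 83 members rose and 1 fell.

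The 1 member that fell, Nv.T1.64122.2, was the best-placed member of the early embryo. It lay between 508 and 4115 CPM before 12 h (median 1404) and between 101 and 4280 CPM at 12 to 24 h (median 200). The windows overlapped, with embryo 27 at the top of the later one, and 12 of 17 later embryos lay below all earlier ones. The log2 fold change was -1.52 ± 0.44 (SE, edgeR adjusted p = 0.0027) and -2.07 without embryo 27 (adjusted p = 2.2e-05). Its level was not lost afterwards: the medians were 331 CPM at 24 to 36 h, 382 CPM at 36 to 48 h of the first block, and 531, 733 and 671 CPM in the second block.

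Embryo 27, at 1000 min and with 56536 gene counts the shallowest used, stood apart from its window. It held the lowest value of 42 of the 100 members at 12 to 24 h. Across the 100 members its log2 levels had a correlation of 0.64 with the medians of the window before 12 h and 0.51 with those of the other 12 to 24 h embryos. Embryo 25, at 920 min, was the only other embryo of this window nearer to the earlier medians (0.74 and 0.64). In the remaining 15 embryos the second value was the higher. In embryo 27 gene counts per spike-in count, 0.254, were the lowest of the embryos used.

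Fewer members rose from 12 to 24 h to 24 to 36 h. Of 100 tested, 17 rose and 0 fell (edgeR, the same rule), against 7.36% higher and 3.3% lower among all 12210 models tested. Both windows entered the ranking here too. The median member changed by 0.75 on the log2 scale and all models by 0.04. The count depends on the scaling and the embryos. It was 51 with spike-in scaling, where 1920 of 12210 models rose, and 8 with embryos of 500000 or more counts, where 827 of 13232 rose. The count was 10 without embryo 27 and 27 without embryo 31. Of the 17, 16 had also risen in the step before, as had 84 of the 99 members tested there.

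Nv.T1.24227.1 rose most. It lay between 0 and 266 CPM at 12 to 24 h (median 15.7) and between 14.8 and 3287 CPM at 24 to 36 h (median 426), with 3.02 ± 0.66 on the log2 scale (SE, adjusted p = 0.0012 in edgeR). It came latest of the 83 members, passing 50% of its median at 24 to 48 h at 1880 min, and Nv.T1.67611.33 came next, at 1640 min. The 19 embryos before 12 h held 12 counts of it among 15594935, 13 of them none, and the 18 embryos at 36 to 48 h held 20857 counts. At 36 to 48 h it lay between 54.0 and 2481 CPM (median 935) against at most 6.17 CPM before 12 h, with no overlap, so the fitted log2 fold change of 10.4 rests on 12 early counts. Nv.T1.67611.33 rose from a median of 205 CPM (2.30 to 926) to 788 CPM (303 to 2454), a log2 change of 1.797 ± 0.39 (edgeR adjusted p = 0.0012). Between 36 to 48 h (median 1240 CPM, 451 to 4156) and the embryos before 12 h (median 21.7 CPM, 0 to 96.7) its log2 fold change was 6.40 ± 0.47 (edgeR adjusted p = 4.6e-15), again with no overlap.

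Within the first block few members changed from 24 to 36 h to 36 to 48 h. None rose and 3 fell, against 1.08% of 12277 models higher and 0.538% lower (edgeR, the same rule). An unadjusted p under 0.05 was found for 30 members and for 2295 of these models. All 3 members that fell had risen from the window before 12 h to 12 to 24 h, as had 84 of the 99 tested there. Nv.T1.32262.1 lay between 19.0 and 5159 CPM at 24 to 36 h (median 2133, n = 18) and between 12.5 and 995 CPM at 36 to 48 h (median 480, n = 18). The windows overlapped, and the log2 change was -2.11 ± 0.40 (SE, edgeR adjusted p = 0.0030). Nv.T1.32261.1 went from 20.5 to 5080 CPM (median 2076) to 22.1 to 1062 CPM (median 528), with -1.93 ± 0.38 (edgeR adjusted p = 0.0041). Nv.T1.43375.1 had a median of 1297 CPM (587 to 3366) and then 432 CPM (57.7 to 1576), with 10 of 18 later embryos below all earlier ones and a log2 fold change of -1.22 ± 0.29 (adjusted p = 0.0128 in edgeR). With spike-in scaling its adjusted p was 0.16.

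**Figure D3:**
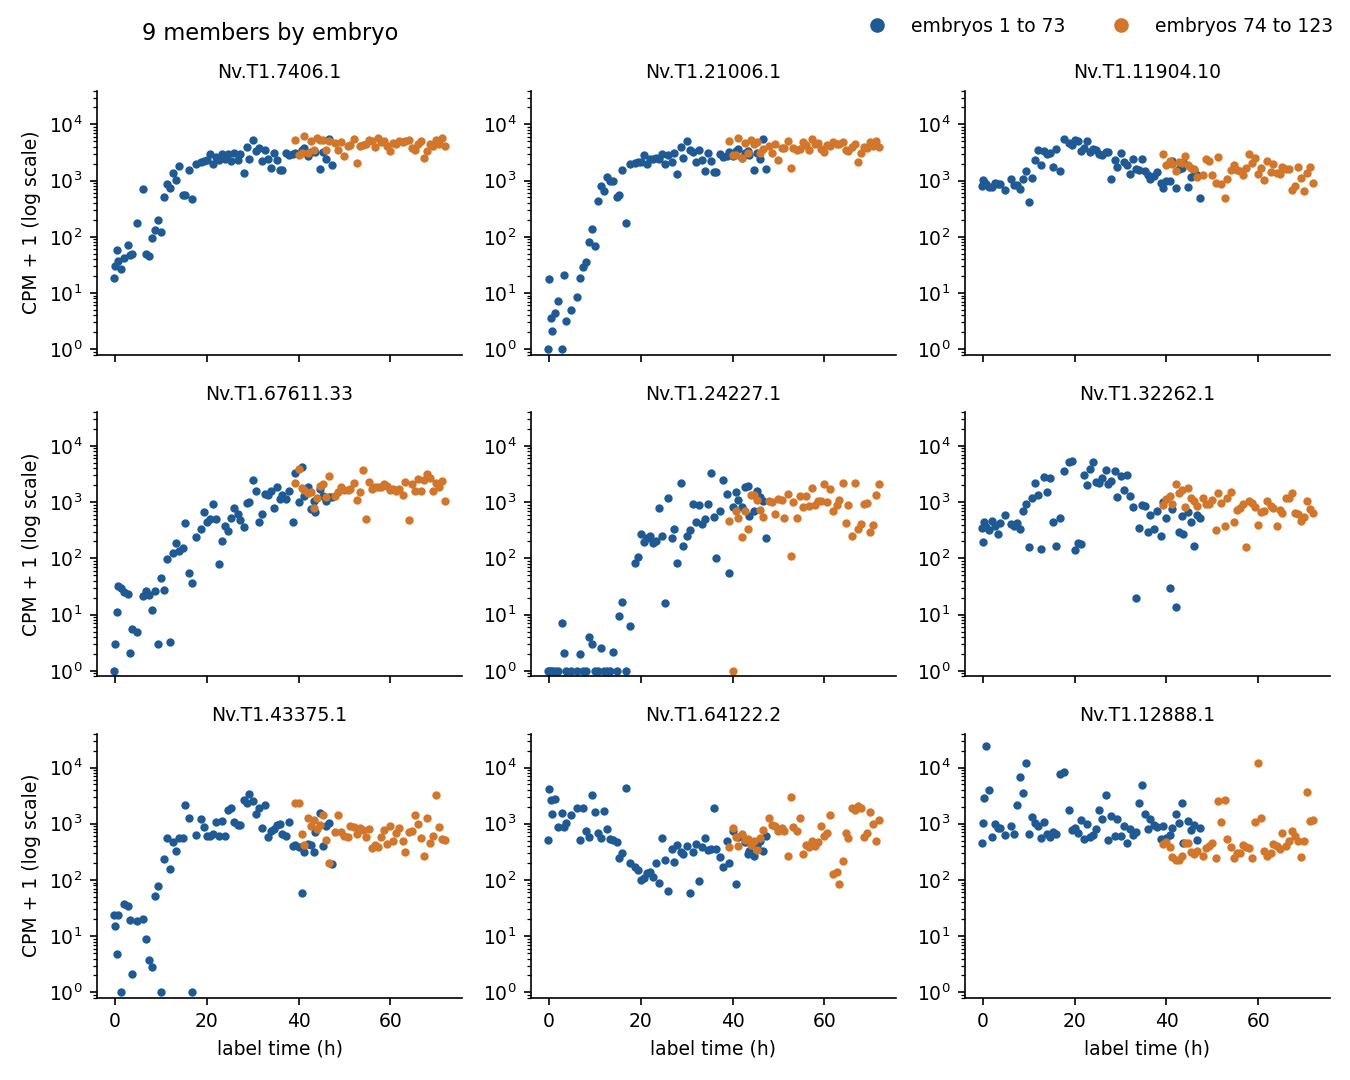
CPM + 1 on a log axis against label time (h) for 9 members, 1 point per embryo, blue for embryos 1 to 73 and orange for embryos 74 to 123. The 2 most abundant members climb to a plateau, Nv.T1.24227.1 stays at or near 0 before 12 h, Nv.T1.32262.1 lies in separated levels at 12 to 24 h, and Nv.T1.12888.1 has single high embryos in both blocks.

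The pair Nv.T1.32261.1 and Nv.T1.32262.1, whose identifiers are consecutive, moved as one across embryos. Around their time curves the correlation of their log2 levels was 0.996 in the first block (n = 72) and 0.971 in the second (n = 49), and their log2 ratio in the second block was -0.03 (SD 0.16). They also had a feature that the window medians hide. At 12 to 24 h the values of Nv.T1.32262.1 fell on either side of a gap: 7 embryos (21, 25, 26, 27, 31, 32 and 33) lay between 142 and 513 CPM and the other 10 between 1325 and 5373 CPM. The same 7 embryos were the low ones for Nv.T1.32261.1 (133 to 425 CPM, against 1314 to 5339 CPM). Time ran from 720 min in embryo 20 to 1400 min in embryo 36. In that order the low embryos came singly (21) or in runs of 3 (25 to 27 and 31 to 33). Runs of 3 high ones stood between (22 to 24 and 28 to 30). The high embryos 34 to 36 were followed by more high ones beyond this window, up to embryo 49 (1295 CPM of Nv.T1.32262.1). The lowest values of Nv.T1.32262.1 came later still, with 19.0, 28.9 and 12.5 CPM in embryos 52, 63 and 65. Gene counts ranged from 56536 to 1541825 in the low embryos and from 434859 to 1706574 in the others. Counts that could fall on either model of such a pair are uncertain, since the sequences of the models were not used here.

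Over the first block as a whole, 36 to 48 h against before 12 h, 84 members were higher and 2 lower (edgeR), against 31.1% and 24.5% of 11454 models, with a median of 3.16 for members and 0.09 for all models on the log2 scale. Over this span Nv.T1.64122.2 was lower, by 1.33 on the log2 scale (adjusted p = 0.0012), but with spike-in scaling the log2 fold change was -0.18 (edgeR adjusted p = 0.69). For Nv.T1.12888.1 the medians hardly differed, 1020 CPM before 12 h (449 to 24121) and 862 CPM at 36 to 48 h (457 to 2298). Its fitted change on the log2 scale, -1.62 ± 0.44 (SE, adjusted p = 0.0013 in edgeR), was -0.98 without embryo 3 (adjusted p = 0.013), short of a 2-fold change, and -0.51 with spike-in scaling (adjusted p = 0.34).

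Nv.T1.12888.1 was the member with the tallest single-embryo peaks. It reached 24121 CPM in embryo 3 (40 min), 12086 CPM in embryo 16 (560 min), 11845 CPM in embryo 92 (3600 min), 8358 CPM in embryo 28 (1060 min) and 7765 CPM in embryo 27 (1000 min). In 10 embryos it exceeded 5 times its window's median. With window medians under 100 CPM taken as 100 CPM, no other member did so in more than 3. Unaligned counts were 71.0% in embryo 3, 41.0% in embryo 16, 66.5% in embryo 92, 58.71% in embryo 28 and 32.5% in embryo 27, against medians of 38.4% in the first block and 34.2% in the second. Across embryos the correlation of its log2 level with the unaligned share was 0.42 in each block, the highest of the 100 members in both. What part the unaligned reads have in these peaks was not tested.

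The spline fit used each embryo at its own label time. In the first block 97 of 100 members changed with time at an edgeR adjusted p under 0.05, and 81.8% of all 18695 models did, with the same embryos having entered the ranking. The fitted curve of the median member spanned 4.498 on the log2 scale and that of the median model 2.40. The widest curves were those of Nv.T1.24227.1, which spanned 12.2 (adjusted p = 3.6e-27), and Nv.T1.63594.6, with 11.4 (adjusted p = 4.5e-27). Nv.T1.63594.6 lay at a median of 1.98 CPM before 12 h (0 to 111), 256 CPM at 12 to 24 h (17.69 to 468), 385 CPM at 24 to 36 h (185 to 858) and 478 CPM at 36 to 48 h (204 to 981). Both ranges start from values at or near 0.

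Some members did not pass the test between successive windows of the first 48 h. In the 3 successive steps of the first block 14 members were not called, and Nv.T1.7686.5, Nv.T1.33719.1 and Nv.T1.4113.1 were called in no comparison within a block. How many of all models were likewise never called is not given here, so nothing is read from these counts. Of the members called in no comparison within a block, Nv.T1.7686.5 had the narrowest fitted curve, spanning 0.74 on the log2 scale (edgeR adjusted p = 0.17). Its window medians in the first block were 1272, 834, 898 and 1035 CPM, with values from 192 to 1506 CPM in the first of these windows and from 216 to 1977 CPM in the last. In the second block they were 457, 472 and 748 CPM. A p above the threshold does not show that the level was constant.

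After 36 h, within the second block, no member passed the test between windows. From 36 to 48 h to 48 to 60 h 0 of 100 members passed, against 0.0396% of 12626 models (edgeR). An unadjusted p under 0.05 was found for 14 members and for 706 of these models. From 48 to 60 h to 60 to 72 h 0 of 100 passed, against 0% of 10636 models. Here 6 members and 473 of these models had an unadjusted p under 0.05. DESeq2 called 0 members in both, and 41 of 12626 and 0 of 10636 models. The median member changed by 0.07 and 0.08 on the log2 scale. In the spline fit 1 member, Nv.T1.12888.1, changed with time (fitted log2 range 2.78, edgeR adjusted p = 0.039), against 1.31% of 19069 models. Its windows lay between 223 and 467 CPM (median 315), 243 and 2613 CPM (median 389), and 258 and 11845 CPM (median 494), and its call was lost with spike-in scaling (adjusted p = 0.18) and with 3 degrees of freedom (adjusted p = 0.29). The fitted curve of the median member spanned 0.67 in this block, and that of the median model 1.65.

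**Figure D4:**
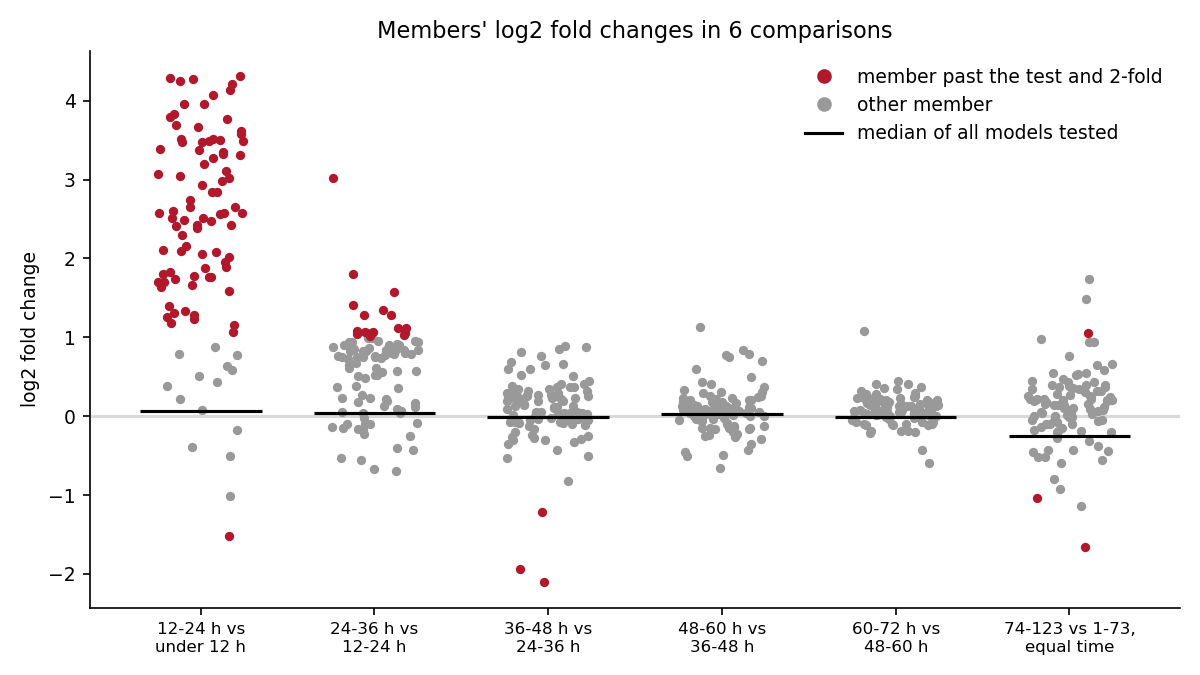
Log2 fold change of each member (points; red: past an adjusted p of 0.05 and 2-fold, grey: other) in 6 comparisons, with the median of all models tested as a black line. The members' median lies at 2.48 in the first comparison, 0.75 in the second and between 0.07 and 0.14 in the others.

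Both blocks could be set side by side only at 36 to 48 h, where 11 pairs of embryos share a label time (2360 to 2800 min). The members held more of the counts in the second block in 10 of 11 pairs, with medians of 9.13% (7.32 to 10.5%) in embryos 1 to 73 and 10.2% (8.92 to 11.7%) in embryos 74 to 123. In the paired edgeR fit 1 member was higher and 2 were lower in the second block, against 0.875% and 1.25% of 11881 models. The median member differed by 0.14 and the median model by -0.25 on the log2 scale.

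Of the 3 called members Nv.T1.12888.1 differed most, and without overlap. It lay between 516 and 2298 CPM in the first block (median 927, n = 11) and between 223 and 467 CPM in the second (median 307, n = 11), a log2 difference of -1.66 ± 0.24 (SE, edgeR adjusted p = 0.0024), and of -0.54 with spike-in scaling (adjusted p = 0.25). Nv.T1.60236.1 lay between 1094 and 2278 CPM (median 1403) and between 487 and 1272 CPM (median 773), a log2 difference of -1.03 ± 0.20 (edgeR adjusted p = 0.013), which turned to 0.10 with spike-in scaling (adjusted p = 0.84). Nv.T1.63607.2 was the member that was higher, with 211 to 1084 CPM (median 691) in the first block and 869 to 1945 CPM (median 1388) in the second, a log2 difference of 1.05 ± 0.21 (edgeR adjusted p = 0.015). The last 2 sit at the 2-fold limit. The highest log2 difference of any member, 1.74 ± 0.55, was that of Nv.T1.32262.1, which was not called (edgeR adjusted p = 0.093). It lay between 12.5 and 995 CPM in the first block (median 529) and between 840 and 2119 CPM in the second (median 1165), and was higher in the second in 10 of 11 pairs. The widest gaps were those of embryos 65 and 63, with 12.5 and 28.9 CPM against 2119 and 1263 CPM in embryos 119 and 121. For Nv.T1.32261.1, also higher in 10 of 11 pairs, the difference was 1.48 ± 0.51 (edgeR adjusted p = 0.12). The same pairs were its widest, so for both models the size of the difference leans on them. Without the pair at 2400 min, or without that at 2800 min, only Nv.T1.12888.1 was called. With spike-in scaling 77 members were higher in the second block, and 0 lower, against 2833 and 27 of 11881 models. The median of all models was then 0.82. Why the blocks differ was not tested.

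Members differed in how tightly embryos followed their time curves. The residual SD around the spline, on the log2(CPM + 1) scale, had a median of 0.72 in the first block (0.34 to 1.85) and 0.41 in the second (0.22 to 1.44), and was larger in the first block for 84 of 100 members. Counting error alone would give medians of 0.13 and 0.08, with highest values of 0.83 and 0.13. Any misfit of the curve where levels climb steeply in the first block also enters its SD, and its part was not tested. For the 100 models ranked next, 101 to 200, the median residual SDs were 0.63 and 0.51. The tightest members of the first block were Nv.T1.10765.3, with 0.34, and Nv.T1.11904.13, with 0.40. Nv.T1.10765.3 ran from medians of 614 and 916 CPM in the first 2 windows to 660 and 405 CPM in the next 2, and Nv.T1.11904.13 from 572 and 692 CPM to 582 and 793 CPM. The loosest were Nv.T1.43375.1, with 1.85, and Nv.T1.32262.1, with 1.51, both described above.

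**Figure D5:**
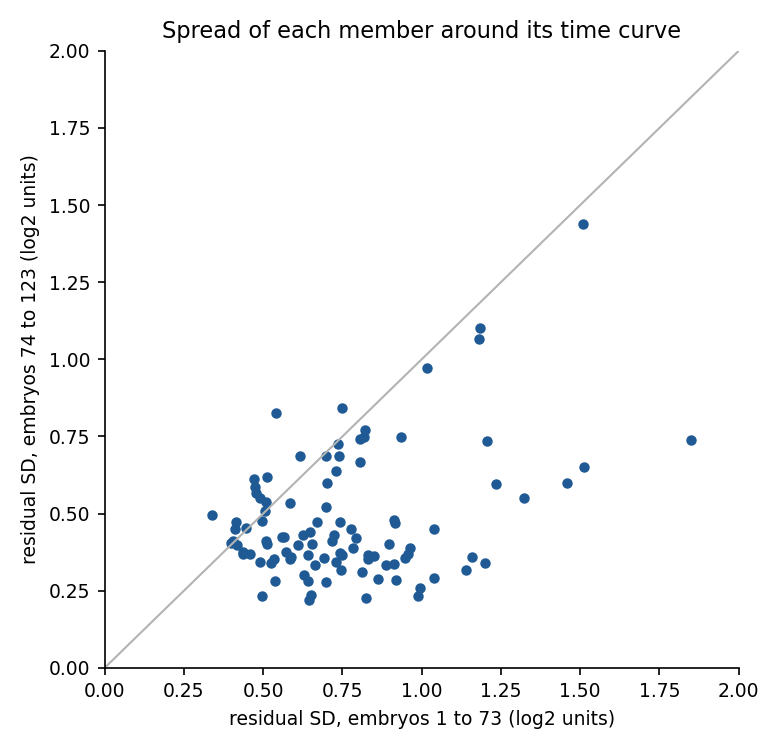
Residual SD (log2 units) of each member around its time curve in embryos 74 to 123 against that in embryos 1 to 73, 1 point per member, with the line of equality. Of 100 points 84 lie below the line.

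Members varied together only loosely once time was taken out. The median correlation of 2 members' residuals was 0.20 in the first block (n = 72 embryos) and 0.13 in the second (n = 49), with all values from 1 embryo sharing its library and its total. Some pairs were far tighter. The 2 most abundant members, Nv.T1.7406.1 and Nv.T1.21006.1, had a residual correlation of 0.978 in the second block, where their log2 ratio was 0.14 (SD 0.08). Before 12 h they were apart, with a log2 ratio of 1.42 (SD 2.06), computed with 1 CPM added. Nv.T1.25022.1 and Nv.T1.6432.2 had a residual correlation of 0.960 in the second block, with a log2 ratio of -0.04 (SD 0.07), against -0.89 (SD 0.70) before 12 h. Nv.T1.63607.2 and Nv.T1.54889.1, the latter named after its values were seen, had 0.974 and 0.962 in the first and second block. These pairs carry different stems, and whether their sequences are alike was not tested.

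The identifiers show 1 more feature that the rule did not use. The 100 members fall on 90 stems, and 8 stems hold 2 or more members, 18 members in all, with 4 on stem 10672. Of the members, 64% were the only model of their stem, against 84.6% of the 36807 models outside the stems set aside. Of the 36 members with company in their stem, 18 held over 50% of the stem's counts. For the 13 pairs of members on a shared stem the median residual correlation was 0.71 in the first block and 0.84 in the second, with a lowest value of 0.02 in each. Whether a stem stands for a gene was not given in the sources used here, and counts among models of 1 stem are uncertain.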

How the data were processed

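For each embryo the authors deposited raw counts, in whole numbers and not normalized, of 40499 transcript models and 92 spike-in RNAs. Per the submitters' processing notes, the tools were HTSeq 0.5.4p3, Bowtie2 2.1.0 and CASAVA 1.8. Genome build, annotation and strand setting are not given in the sources used here. None of the identifiers (0 of 40499) matched the 38762 genes of the reference table, so no names or sequences are given.

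CPM was computed over Nv. models, and 121 embryos with 50000 or more such counts were used. Counts were fitted with edgeR 4.0.16 in R 4.3.3 (quasi-likelihood F test, TMM, filterByExpr) across all models, with Benjamini-Hochberg adjustment over all of them, and a call needed 0.05 and 2-fold (splines, with 5 degrees of freedom, 0.05 alone). SE is the absolute log2 fold change over the square root of F. Windows are 12 h wide. A window fit and a spline fit were tested on simulated counts of 1 fixed dispersion in which few models changed. Such counts cannot test the scaling where many models change, as in the first block. Alternatives were DESeq2 1.42.0, median-ratio and spike-in scaling, no filter, a minimum of 500000 counts, both stems left out of the totals, and fits without 9 embryos of unusual totals (3, 7, 27, 28, 32, 54, 58, 92 and 96) or without single embryos.

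The members, lists and windows were chosen with earlier results of these data known. Members are named by a rule: the 10 highest, the 5 on either side of the threshold, at most 2 called rises and 2 falls per comparison, the 2 widest called curves, the 2 tightest and 2 loosest, and the steadiest. Others are said to be chosen after their values were seen.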

Additional observations from a re-analysis of the deposited data

How the results depend on the processing

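Counts of called members moved by no more than 1.5 times under all alternatives run for 12 to 24 h against before 12 h (84 to 92 calls), 36 to 48 h against before 12 h (85 to 92), 36 to 48 h against 24 to 36 h (2 to 4), 60 to 72 h against 48 to 60 h (0) and the first block's spline (96 to 98). From 12 to 24 h to 24 to 36 h the 17 calls were 51 with spike-in scaling, where 2003 of 12210 models were called. They were 8 with 500000 or more counts (1182 of 13232 models), and 10 to 27 when single embryos were left out. From 36 to 48 h to 48 to 60 h there was 1 call with no filter on low counts, against 1214 of 32161 models. At equal label time the 3 calls were 5 with DESeq2 (1375 of 11881 models) and 77 with spike-in scaling (2860 of 11881). They were 5 with no filter (1121 of 33762), 1 with 500000 or more counts (79 of 14022) and 1 to 5 without single pairs. The difference of Nv.T1.60236.1 turned from -1.03 to 0.098 with spike-in scaling. In the second block's spline the 1 call was 0 with spike-in scaling (193 of 19069 models) and 8 with no filter (9649 of 34021). It was 0 with 500000 or more counts (36 of 19022) and 0 with 3 degrees of freedom (64 of 17036). With no stem dropped 50 members stayed among the top 100, against 75 to 98 under the other rankings. With both stems out of the total, the members' median share was 9.35%, 11.7% and 12.3% in the later windows of the first block and 14.1%, 14.5% and 15.4% in the second. Leaving out embryos 3, 16, 19 or 27 singly gave 84 to 86 calls in the first comparison, and leaving out 3, 16 or 19 gave 85 to 87 over the whole first block. Single embryos left out of 36 to 48 h against 24 to 36 h gave 3 to 4.

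Spike-in scaling moved all models: their median log2 fold change was 0.65 against 0.07 with TMM for 12 to 24 h against before 12 h, 0.49 against 0.04 for the next step, 1.16 against 0.09 over the whole first block, -0.52 against -0.01 for the last step of the second block and 0.82 against -0.25 at equal label time. The share of calls over all models that were higher was then 77.7% against 55.6%, 95.9% against 69.0%, 87.4% against 55.9% and, at equal label time, 99.1% against 41.1%. The cause was not tested.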

Other observations

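Members counted per spike-in count, a scale on which the size of the library falls out, had medians of 0.0475 before 12 h, 0.2995 at 12 to 24 h, 0.563 at 24 to 36 h and 0.475 at 36 to 48 h of the first block. In the second block the medians were 1.53, 1.72 and 1.16. How much spike-in RNA each embryo received is not given in the sources used here, so the levels of both blocks on this scale are values only.

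Both embryos left out for low counts are given by their member share. Embryo 10, at 320 min, held 139 member counts, 1.92% of its gene counts, with 55 members at 0. Embryo 111, at 2840 min, held 934 member counts, 9.18%, with 13 members at 0.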
